A study of Mus musculus with 4 samples.

Results

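The Hoxc genes are 9 homeobox genes that lie side by side on mouse chromosome 15. They were taken as every symbol of the deposited expression table that starts with Hoxc, which gave 9 of its 9997 distinct symbols: Hoxc4, Hoxc5, Hoxc6, Hoxc8, Hoxc9, Hoxc10, Hoxc11, Hoxc12 and Hoxc13. RNA was sequenced in 4 libraries of embryoid bodies, floating clumps of differentiating embryonic stem cells, made from the mouse line ES-E14TG2a. There was 1 library for each of 4 groups: embryoid bodies treated with all-trans retinoic acid (ATRA) and labelled 0 days, 6 days and 10 days, and control embryoid bodies. The labels give no genetic change in any group. Treated aggregates received 5 µM ATRA on culture days 4 and 6, to direct the cells towards neurons. After 8 days in suspension the aggregates were moved to dishes coated with poly-DL-ornithine and laminin. The culture day of the control is not given, nor whether each library was taken before or after that transfer. In any comparison with the control, ATRA, culture age and culture format therefore cannot be told apart. Between the ATRA libraries, time and culture format cannot be told apart either. Because each group is a single library, the differences could not be checked against replicates, and no test or p-value is given.

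Hox genes encode transcription factors that tell cells where they lie along the head-to-tail axis. In vertebrates they sit in clusters, and genes at one end of a cluster (low paralog numbers) act earlier and nearer the head than genes at the other end (high numbers), an arrangement called collinearity. Retinoic acid, acting through nuclear receptors that bind DNA, is a known inducer of the low-numbered end, whereas high-numbered genes are known for roles in the tail, limbs and skin. All 9 Hoxc genes are transcribed from the plus strand. On mm10 the cluster runs from Hoxc13, starting at 102921103, to Hoxc4, ending at 103036852, a span of 116 kb.

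Sequences of the locus are shown first, because the labelled treatment acts on gene control and because 2 genes inside the cluster are microRNAs that can bind Hox transcripts. The RefSeq promoter table (GRCm38.p6) matched 1 of the 9 genes, Hoxc4, the member with the highest level in the series. Its window of 250 bases before to 50 after the start (chr15:103034145-103034444, plus strand) is printed with capitals on the match to AGGTCA, the hexamer that retinoic acid receptors recognise, read here on the minus strand. The window belongs to a start inside the annotated gene; GENCODE also places a Hoxc4 start at 103018934, and the data do not tell which start was used.
Hoxc4 promoter: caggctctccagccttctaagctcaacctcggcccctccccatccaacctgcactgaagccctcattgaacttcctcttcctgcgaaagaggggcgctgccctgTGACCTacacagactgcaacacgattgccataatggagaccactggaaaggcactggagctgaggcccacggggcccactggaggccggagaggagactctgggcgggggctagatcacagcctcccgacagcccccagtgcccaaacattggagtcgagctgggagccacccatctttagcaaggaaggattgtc

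AGGTCA on either strand was present in 16.3% of 32851 promoter windows of this length, so holding 1 match does not set the Hoxc4 window apart. The variant AGTTCA also matched once, on the minus strand, against 14.0% of windows, and the variant GGTTCA had no match. Direct repeats of AGGTCA spaced by 5 bases (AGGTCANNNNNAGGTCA) or by 2 (AGGTCANNAGGTCA), the layouts known from retinoic acid response elements, were not among these letters on either strand, and 3 windows of the whole table held each. TTTATG, the site of caudal factors, TGATNNAT, a joint site of Hox proteins and their cofactors, and the TATA box TATAAA had no match either, against 11.9%, 8.85% and 13.6% of windows. The window was 60.3% G or C and held 9 CG pairs, against a median of 7.

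The microRNA genes are Mir196a-2, between Hoxc10 and Hoxc9, and Mir615, in the intron of Hoxc5. Of their 4 mature strands, 3 are printed from RefSeq with the seed (bases 2 to 8) in capitals.
miR-196a-5p: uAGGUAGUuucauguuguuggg
miR-615-5p: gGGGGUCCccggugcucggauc
miR-615-3p: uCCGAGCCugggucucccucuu

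A perfect match to the miR-196a-5p seed, ACTACCT on the sense strand, occurred in the 3′ UTR of 1 of the 9 genes, Hoxc8, against 6.20% of 20532 mouse coding genes. Hoxc8 is a known target of this microRNA, and its UTR held 2 matches, at bases 135 and 892 of 966.
Hoxc8 site at 135: acactcacaactctaACTACCTg
Hoxc8 site at 892: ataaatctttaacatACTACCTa

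The match to the miR-615-5p seed (GGACCCC) occurred in the UTRs of Hoxc6 and Hoxc11, against 6.62% of coding genes, and those of miR-615-3p (GGCTCGG) and of the strand not printed, miR-196a-2-3p (GTTGCCG), in none of the 9. Both microRNA genes were listed at 0 in all 4 libraries, and hairpins this short are poorly measured by a library of long fragments, so nothing can be read about the microRNAs themselves. Hotair, a long noncoding RNA on the minus strand between Hoxc12 and Hoxc11, was listed at 0 in the control and stood at 0.0163 FPKM at 0 days, 0.0333 FPKM at 6 days and 0.0149 FPKM at 10 days, about the worth of 1 or 2 fragments.

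Levels are FPKM, fragments scaled by transcript length and by the mapped fragments of the library. Comparing levels between genes rests on the transcript lengths used, and the annotation behind them is not given. Differences are taken on log2(FPKM + 1), which understates the change of low genes, and calls need at least a 2-fold difference on that scale, up or down. Calls were made among 5885 symbols that reached 1 FPKM in some library; 6 of the 9 Hoxc genes passed, and Hoxc10, Hoxc11 and Hoxc12 stayed below 1 FPKM throughout. The table holds FPKM without counts. The FPKM worth of 1 fragment, read from the lowest values of single-transcript genes, gave estimated depths between 24500000 fragments, in the control, and 27300000 fragments, in the 10-day library. For the 9 genes, 3 fragments correspond to levels between 0.0376 and 0.119 FPKM, and all errors derived from this cover counting only. In whole aggregates, fewer cells expressing a gene and less RNA per cell cannot be told apart.

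The cluster was almost silent in the control and was on at 0 days from its Hoxc4 end. The summed level of the 9 genes was 1.05 FPKM in the control, 100.5 FPKM at 0 days, 38.1 FPKM at 6 days and 21.8 FPKM at 10 days. Hoxc4 and Hoxc5 together made up 88.5% of that sum at 0 days, 42.1% at 6 days and 36.6% at 10 days. Hoxc10 to Hoxc13 made up 0.730%, 6.36% and 13.7% of it in the same libraries. As the sum became smaller, the far end of the cluster took a larger share of it.

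**Figure D1:**
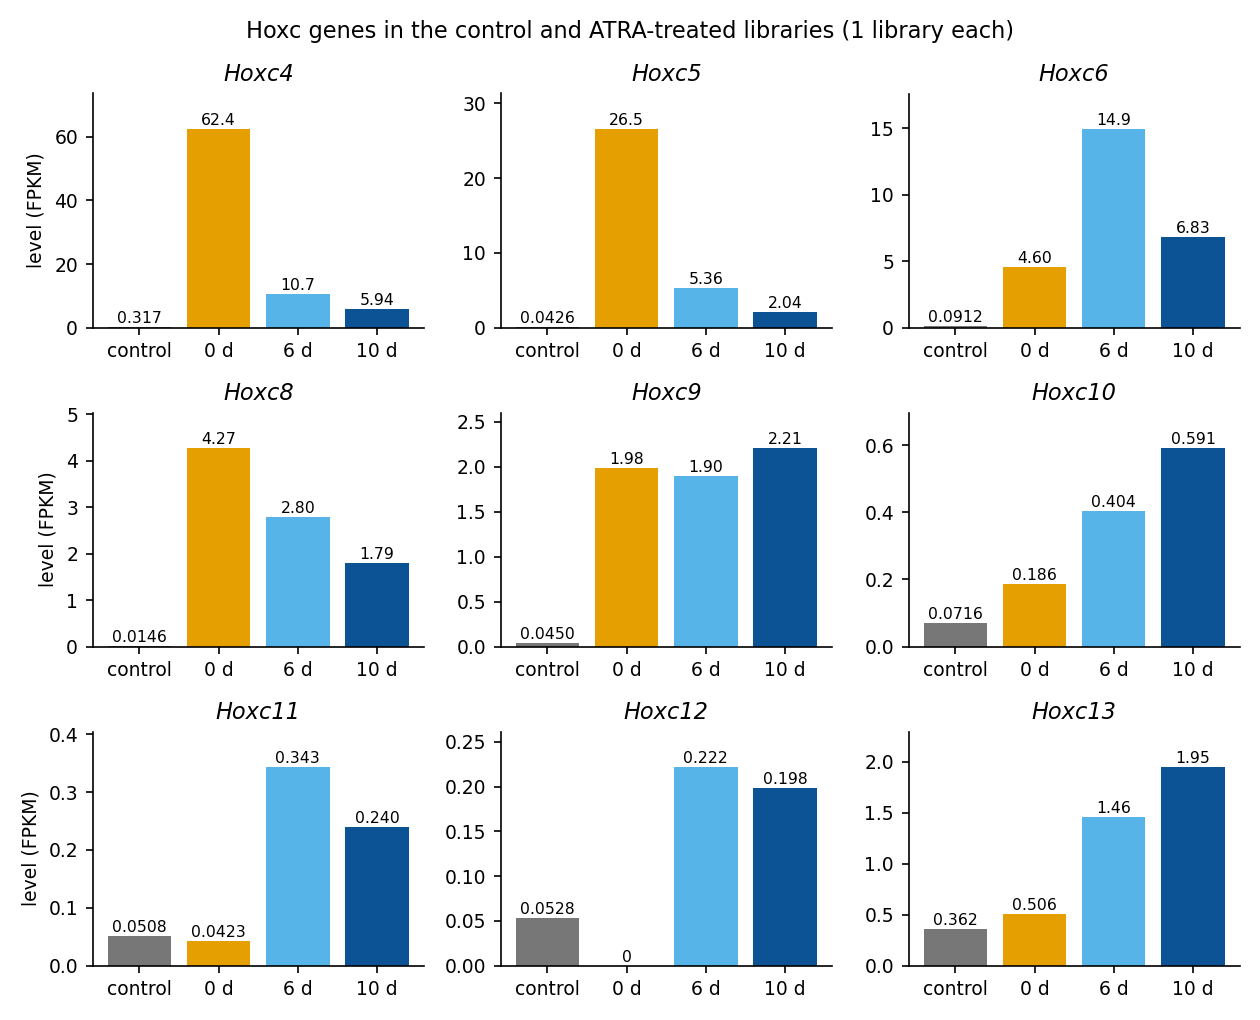
Level in FPKM (vertical axis, a separate scale for each gene) of the 9 Hoxc genes in the control library and in the ATRA libraries at 0, 6 and 10 days; each bar is 1 library, with its value above it. The tallest bar is at 0 days for Hoxc4, Hoxc5 and Hoxc8, at 6 days for Hoxc6, Hoxc11 and Hoxc12, and at 10 days for Hoxc9, Hoxc10 and Hoxc13.

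Hoxc4 and Hoxc5, factors of the neck region of the axis, had like profiles. Hoxc4 (gene 103018934 to 103036852) was at 0.317 FPKM in the control, 62.4 FPKM at 0 days, 10.7 FPKM at 6 days and 5.94 FPKM at 10 days. Its 0-day level was the highest of any Hoxc gene in any library, and its 10-day level still lay above its control level. Hoxc5 (coding transcript 103013815 to 103017429) was at 0.0426 FPKM in the control, 26.5 FPKM at 0 days, 5.36 FPKM at 6 days and 2.04 FPKM at 10 days. Of the 15 pairs among the 6 tested members, these neighbours had the most similar profiles (Euclidean distance 0.70 between centred log2 profiles over the 4 libraries), and Hoxc4 and Hoxc13, the ends of the cluster, the least similar (4.02).

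Hoxc6, a factor of the thoracic boundary, peaked later. It was at 0.0912 FPKM in the control, 4.60 FPKM at 0 days, 14.9 FPKM at 6 days and 6.83 FPKM at 10 days. Hoxc6 lies 9.36 kb from Hoxc4, measured between the starts of their coding transcripts, and was, with the pseudocount of 1 FPKM, the only Hoxc gene called higher at 6 than at 0 days. At 6 days it stood above Hoxc4, by a ratio of levels of 1.40. At 10 days the 2 genes were 1.15-fold apart, within the 95% range of their joint counting error.

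Hoxc8 and Hoxc9, which pattern the trunk, reached a few FPKM. Hoxc8 was at 0.0146 FPKM in the control, 4.27 FPKM at 0 days, 2.80 FPKM at 6 days and 1.79 FPKM at 10 days, so it was highest at 0 days like Hoxc4, with smaller differences afterwards. Hoxc9 was at 0.0450 FPKM in the control, 1.98 FPKM at 0 days, 1.90 FPKM at 6 days and 2.21 FPKM at 10 days. Its 3 ATRA libraries lay within a log2 difference of 0.15 of each other, and each level carries a counting error of 8.37% to 9.39%, so the order of those libraries cannot be read.

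At the far end, Hoxc13, known for its part in hair and nail formation, stood apart from its low neighbours. It was at 0.362 FPKM in the control, 0.506 FPKM at 0 days, 1.46 FPKM at 6 days and 1.95 FPKM at 10 days, on an estimated 21.8, 32.8, 90.3 and 130.7 fragments. The 6-day and 10-day levels were the high ones. Hoxc10, a factor of the lumbar region, was at 0.0716, 0.186, 0.404 and 0.591 FPKM in the same order of libraries, on 3.4 to 30.8 fragments, and its lowest value was in the control. Hoxc11 was at 0.0508 FPKM in the control, 0.0423 FPKM at 0 days, 0.343 FPKM at 6 days and 0.240 FPKM at 10 days. Hoxc12 was at 0.0528 FPKM in the control, listed at 0 at 0 days, where 3 fragments would be 0.110 FPKM, and at 0.222 and 0.198 FPKM at 6 and 10 days. Both were thus higher in the 6-day and 10-day libraries than in the control and 0-day libraries, but Hoxc12 rests on at most 5.8 fragments in any library and Hoxc11 on at most 17.5.

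At 0 days levels stepped down from Hoxc4 along the cluster, whereas at 6 and 10 days the highest level was that of Hoxc6. In the 10-day library Hoxc6 and Hoxc4 were not apart beyond counting error. At 0 days the order of levels was Hoxc4, Hoxc5, Hoxc6, Hoxc8, Hoxc9, Hoxc13, Hoxc10, Hoxc11 and Hoxc12, which follows the chromosome apart from Hoxc13. Of the neighbours in that order, Hoxc6 and Hoxc8 were not apart beyond the 95% range of their joint counting error, as were Hoxc11 and Hoxc12. At 10 days Hoxc9, Hoxc5, Hoxc13 and Hoxc8 held ranks 3 to 6 between 2.21 and 1.79 FPKM, and no neighbours among them were apart beyond counting error. Over the 9 genes, Spearman's rho between place in the cluster, counted from Hoxc4, and level was 0.20 for the control library, -0.90 for the 0-day library, -0.85 for the 6-day library and -0.70 for the 10-day library. These are descriptions of 9 genes in 1 library each, which share its depth.

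**Figure D2:**
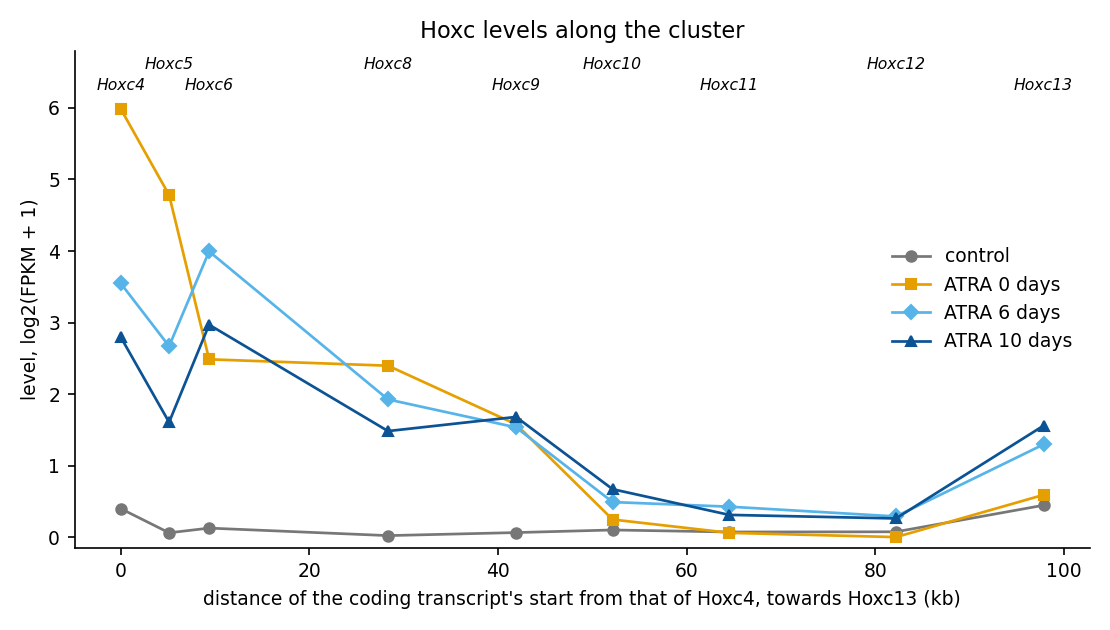
Level as log2(FPKM + 1) (vertical axis) against distance from the start of the Hoxc4 coding transcript in kb (horizontal axis) for the 9 Hoxc genes; each line joins the values of 1 library. Gene by gene, the uppermost line is that of 0 days at Hoxc4, Hoxc5 and Hoxc8 and that of 6 days at Hoxc6, Hoxc11 and Hoxc12. It is that of 10 days at Hoxc9, Hoxc10 and Hoxc13, though at Hoxc9 the order of the ATRA libraries cannot be read. The control line does not exceed the 0.362 FPKM of Hoxc13.

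The first comparison asks which Hoxc genes were on after ATRA that were not on in control embryoid bodies. Of the 6 tested members, 5 were called higher at 0 days than in the control and none lower, against 12.2% of all tested genes called higher and 12.8% called lower (25.0% in either direction). Under upper-quartile scaling, which moved the median gene by 0.18, those calls split into 943 higher and 497 lower genes, in place of 720 and 752, and the same 5 members were called. The log2 differences were larger towards the Hoxc4 end, though not gene by gene: 5.59 for Hoxc4, 4.72 for Hoxc5, 2.36 for Hoxc6, 2.38 for Hoxc8, 1.51 for Hoxc9 and 0.15 for Hoxc13. With a pseudocount of 0.1 FPKM, Hoxc5, at 7.54, passed Hoxc4, at 7.23, and Hoxc8, at 5.25, stood further above Hoxc6, at 4.62. By size of rise with the pseudocount of 1, Hoxc4 had rank 11 and Hoxc5 rank 20 among the 5885 tested genes. The control levels of Hoxc5, Hoxc6, Hoxc8 and Hoxc9 rest on an estimated 0.7 to 3.5 fragments, so the size of their ratio to the control is not fixed by these data. All 9 genes were under 1 FPKM in the control, so a member could pass the filter only by being high after ATRA, and the count of 5 is a description. The median difference of the 6 members was 2.37, against -0.04 for all tested genes.

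In the second comparison, 6 days against 0 days, the members went different ways. Hoxc4 and Hoxc5 were called lower and Hoxc6 higher, against 4.88% of tested genes called lower and 8.22% called higher (13.1% in either direction). The log2 differences were -2.44 for Hoxc4, -2.11 for Hoxc5 and 1.51 for Hoxc6. Hoxc8, at -0.47, Hoxc9, at -0.04, and Hoxc13, at 0.71, did not pass the threshold; with a pseudocount of 0.1 FPKM in place of 1, Hoxc13 did, at 1.36. By size of fall, Hoxc4 had rank 23 and Hoxc5 rank 39. The members' median of -0.26, against 0.01 for all tested genes, hides this split.

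Between 6 and 10 days, Hoxc5 and Hoxc6 were called lower at 10 days and no member was called higher, against 0.850% of tested genes called lower and 3.70% called higher (4.55% in either direction). The log2 difference was -1.06 for Hoxc5, -1.03 for Hoxc6, -0.75 for Hoxc4, -0.44 for Hoxc8, 0.15 for Hoxc9 and 0.26 for Hoxc13. Both calls lie close to the threshold of 1. The median was -0.60 for the members and 0.02 for all tested genes.

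**Figure D3:**
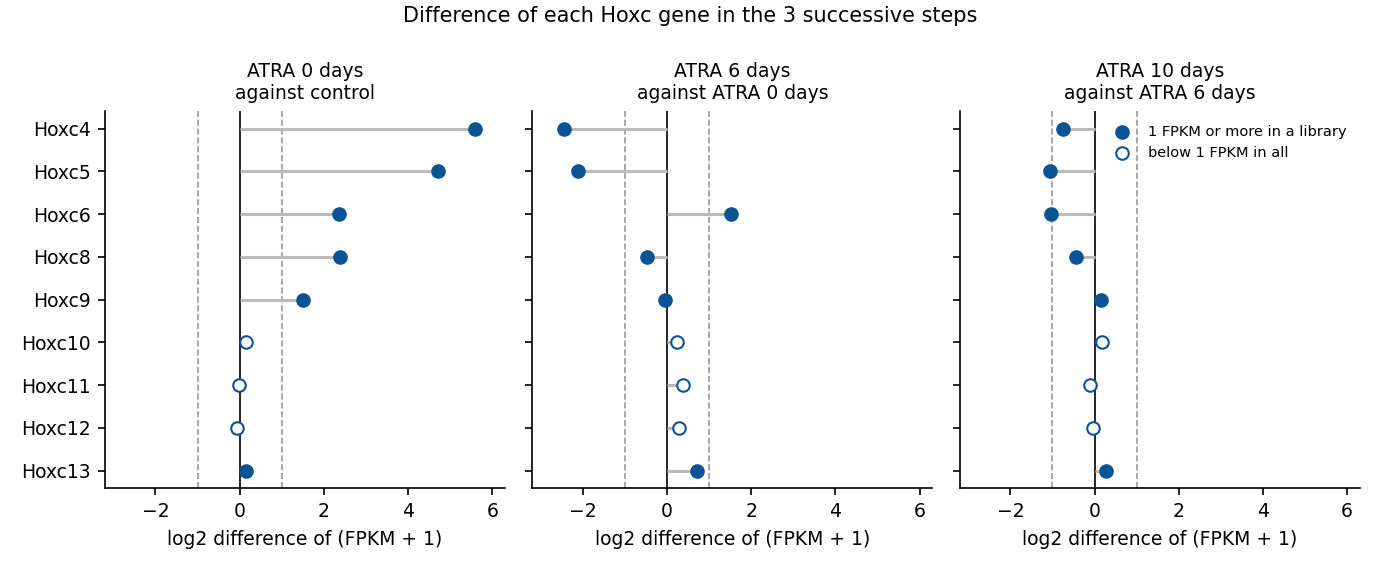
Log2 difference of (FPKM + 1) for each Hoxc gene (rows, in cluster order) in the 3 successive comparisons (panels); filled points are the 6 tested genes, open points Hoxc10, Hoxc11 and Hoxc12, and dashed lines mark 2-fold. Hoxc4 and Hoxc5 lie far right in the first panel and far left in the second, and Hoxc6 lies right of the line in the second.

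Set against the control, all 6 tested members were called higher at 10 days, among them Hoxc13, which was not called at 0 days. Of all tested genes 19.6% were called higher and 17.1% lower (36.7% in either direction). Hoxc6 had the largest log2 difference, 2.84, and Hoxc13 the smallest, 1.11. Hoxc4 came next to Hoxc6 with 2.40; at a pseudocount of 0.1 FPKM Hoxc6 still led, with 5.18, but Hoxc4, with 3.86, was behind Hoxc8, Hoxc9 and Hoxc5. The comparison of 10 with 0 days, added after the values were seen, had Hoxc4 (-3.19) and Hoxc5 (-3.18) called lower and none higher, against 7.60% of tested genes called lower and 14.4% called higher (22.0% in either direction). Hoxc8 stood at -0.91, and was called lower under upper-quartile scaling and with pseudocounts of 0.1 FPKM (-1.20) and 0.5 FPKM (-1.05). Hoxc9 stood at 0.10, Hoxc6 at 0.48 and Hoxc13 at 0.97, and Hoxc13 was called higher with either smaller pseudocount (1.76 and 1.28). These comparisons share libraries with the steps above and are not separate evidence, and as at 0 days the filter lets a member pass only through a high ATRA level. Counted by library, 3 of the 6 tested members were highest at 0 days, 1 at 6 days and 2 at 10 days, where 22.5%, 9.65% and 29.6% of all tested genes had their highest value. None was highest in the control, where 38.2% of all tested genes were, which the filter fixes for genes this low there. For Hoxc9, 1 of the 2 at 10 days, the order of the ATRA libraries cannot be read.

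The genes on either side of the cluster are set beside it here. The 5 nearest tested protein-coding genes on each side lay between 116 and 404 kb away. Of these 10, 1 was called lower at 0 days than in the control (Copz1, a coat protein of vesicles, at 112 FPKM at 0 days and 235 FPKM in the control) and none higher, near the 12.8% and 12.2% of all tested genes; median-ratio and upper-quartile scaling each gave 1 higher and none lower. None was called in either direction at 6 against 0 days, and upper-quartile scaling gave 1 lower. Cbx5, a heterochromatin protein, was called lower at 10 days than in the control (-1.28), and Smug1 lower at 10 than at 0 days (-1.24). Smug1, a DNA repair enzyme and the nearest on the Hoxc4 side, was at 14.1 FPKM in the control, 22.5 FPKM at 0 days, 10.8 FPKM at 6 days and 8.97 FPKM at 10 days. Calcoco1, a coactivator and the nearest on the Hoxc13 side, was at 35.1, 58.5, 30.4 and 30.7 FPKM in those libraries.

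One transcript in the gap between Hoxc4 and Smug1 was also highest at 0 days, and it was picked after its values were seen. D930007P13Rik, a long intergenic noncoding RNA on the minus strand (mm10 chromosome 15, 103123070 to 103146828), lies 86.2 kb beyond the cluster. Its 2 rows sum to 0.0343 FPKM in the control, 9.01 FPKM at 0 days, 2.82 FPKM at 6 days and 0.558 FPKM at 10 days. By the same profile distance it lay 1.04 from Hoxc5, 1.25 from Hoxc8 and 1.72 from Hoxc4. Of 4111 protein-coding genes outside the cluster that reached 5 FPKM in some library, 8 lay nearer to Hoxc5. Nearer to Hoxc8 lay 331 of them, and to Hoxc4 16. It had a log2 difference from the control of 3.27, then -1.39 at 6 against 0 days and -1.29 at 10 against 6 days, which left 0.59 at 10 days against the control, where Hoxc4 had 2.40.

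**Figure D4:**
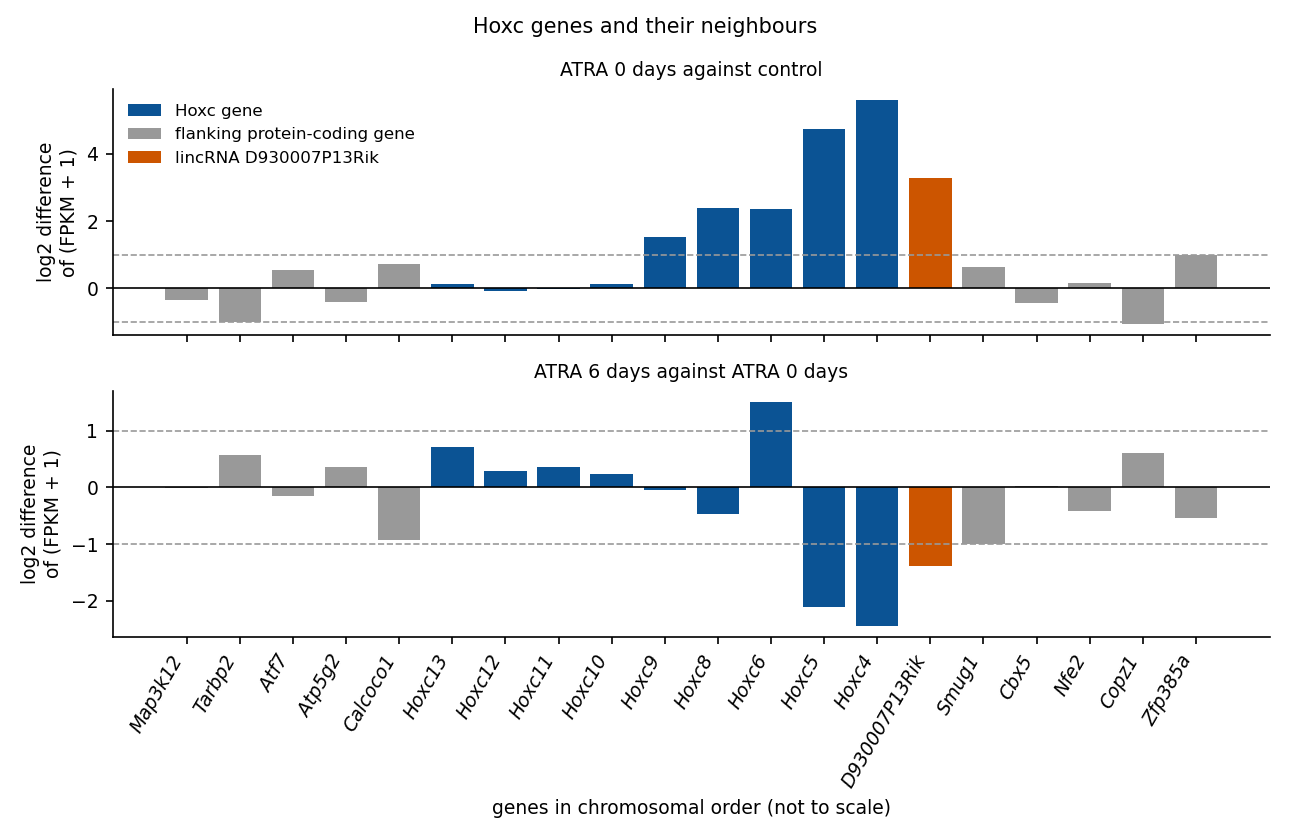
Log2 difference of (FPKM + 1) at 0 days against the control (top) and at 6 days against 0 days (bottom) for the 9 Hoxc genes, the 10 flanking protein-coding genes and the lincRNA D930007P13Rik, in chromosomal order and not to scale; dashed lines mark 2-fold. In the top panel the bars past the upper line are Hoxc4 to Hoxc9 and D930007P13Rik, at 3.27.

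The Hoxb cluster on chromosome 11, which also responds to retinoic acid, shares paralog groups 5, 8 and 13 with the tested Hoxc genes. The table held 7 of its 10 genes, and Hoxb4, Hoxb6 and Hoxb9 were not analysed here. All 7 were called higher at 0 days than in the control (median log2 difference 5.24), against 12.2% of all tested genes. Each was at or under 0.200 FPKM in the control, so it could pass the filter only through an ATRA library. At the next step 6 of the 7 were called lower at 6 than at 0 days (median -1.83), against 4.88%. Hoxb5 was at 0.0294, 56.2, 11.3 and 8.44 FPKM in the control, 0-day, 6-day and 10-day libraries, the same order of libraries as Hoxc5; an antisense transcript, Hoxb5os, overlaps it, and without known strand use their reads cannot be told apart. Hoxb8 was at 0.0176, 37.8, 12.3 and 6.24 FPKM, likewise in the order of Hoxc8 but at a higher level in each ATRA library. The groups parted at 13: Hoxb13 was at 0.200, 3.46, 0.253 and 0.497 FPKM, highest at 0 days, whereas Hoxc13 was highest at 10 days. All 7 Hoxb genes were highest at 0 days, where 22.5% of all tested genes were highest. The Hoxb and Hoxc genes at hand are different paralogs apart from the 3 shared groups, so their counts are not set against each other.

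**Figure D5:**
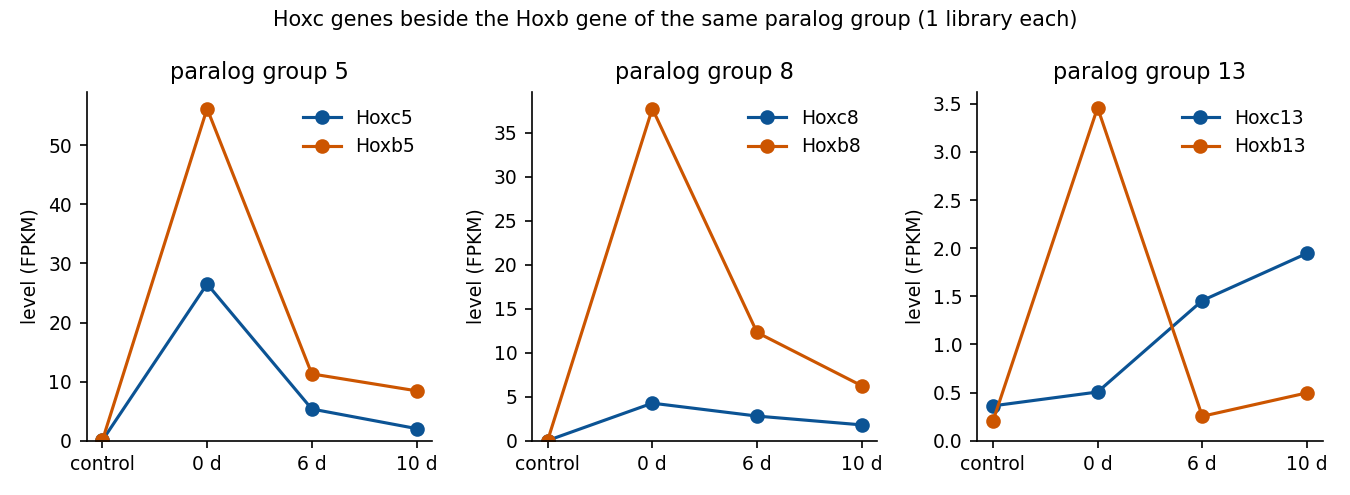
Level in FPKM (vertical axis) of Hoxc5, Hoxc8 and Hoxc13 and of the Hoxb gene of the same paralog group in the control, 0-day, 6-day and 10-day libraries; each point is 1 library. Hoxb13 peaks at 3.46 FPKM at 0 days, where Hoxc13 is at 0.506 FPKM, and Hoxc13 is the higher of the pair at 6 and 10 days.

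Genes that act on Hox clusters or with Hox proteins were described from fixed lists, beside the shares of all tested genes called higher and lower, 12.2% and 12.8% at 0 days against the control and 8.22% and 4.88% at 6 against 0 days. Of 7 tested genes of retinoic acid signalling, 3 were called higher at 0 days than in the control and none lower (median 0.90, against -0.04 for all tested genes). The receptor gene Rarb was at 16.9 FPKM at 0 days and 0.630 FPKM in the control, and the corepressor gene Nrip1 at 15.1 and 1.55 FPKM. At 6 against 0 days, 4 of the 7 were called lower and none higher (median -1.09, against 0.01). Of 4 tested cofactors of the TALE class, which bind DNA together with Hox proteins, 2 were called higher at 0 days than in the control and 1 lower (median 2.15). Meis1 was at 0.294 FPKM in the control, 29.4 FPKM at 0 days, 16.5 FPKM at 6 days and 14.8 FPKM at 10 days. This cofactor was thus highest in the library where Hoxc4 and Hoxc5 were highest.

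Of 7 tested caudal and trunk axis genes, 3 were called higher at 0 days than in the control and none lower (median 0.03). Cdx1, a caudal factor known to activate Hox genes, was at 4.91 FPKM at 0 days and 0.441 FPKM in the control. Gdf11, a ligand that promotes the switch from trunk to tail Hox genes, was at 7.27 and 0.318 FPKM. At 6 against 0 days, 2 were called higher and 1, Cdx1, lower, and T, a mesoderm factor, was at 5.44 FPKM at 6 days and 0.0176 FPKM at 0 days. Of 9 Polycomb and trithorax genes, whose products keep Hox clusters silent or active, 2 were called higher at 0 days than in the control and 2 lower (median -0.21), not far from the shares of all tested genes, and upper-quartile scaling left none lower. Cbx8, a subunit of Polycomb complex PRC1, was at 1.73 FPKM at 0 days, against 0.221 FPKM in the control. Jarid2, a PRC2 cofactor, was at 24.0 FPKM at 0 days and 53.3 FPKM in the control. At 6 against 0 days none of the 9 was called higher and 2 were called lower. At 10 days against the control 2 were called higher and 6 lower (median -1.19), against 19.6% and 17.1% of all tested genes. At 10 against 0 days 1 was called higher and 4 lower, against 14.4% and 7.60%.

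Markers of the cell types that embryoid bodies can hold moved with these libraries. The summed level of 6 of 9 listed pluripotency markers was 2116 FPKM in the control, 149 FPKM at 0 days, 249 FPKM at 6 days and 232 FPKM at 10 days. That of 8 of 11 neural markers was 8.88, 14.9, 114.5 and 53.6 FPKM, highest at 6 days as for Hoxc6. Of the 6-day sum, Nefl made 39.6 FPKM and Fabp7 35.9 FPKM. Called higher at 6 than at 0 days were 6 of 7 tested neural markers, against 8.22% of all tested genes. For 8 of 11 endoderm markers the summed level was 165, 354, 2434 and 3539 FPKM. For 9 of 10 mesoderm markers it was 15.0, 22.6, 106 and 390.2 FPKM, and for 4 of 6 trophoblast markers 0.327, 0.123, 48.0 and 75.6 FPKM. Of the endoderm sum, Sparc, a matrix protein, alone made 1862 FPKM at 6 days and 2711 FPKM at 10 days, and Sox7 had another order, with 19.6 FPKM at 0 days, 5.48 FPKM at 6 days and 3.04 FPKM at 10 days. Of the mesoderm sum, Tnnc1 alone made 217 FPKM at 10 days. Meox1 had another order, with 7.85, 0.546 and 0.180 FPKM at 0, 6 and 10 days. T was at 5.44 FPKM at 6 days and 0.776 FPKM at 10 days. The neural marker Nhlh1 was listed at 0 in the control, and the trophoblast markers Tpbpa, Prl2b1 and Prl3d1 at 0 days. Of 10 listed motor neuron genes 1 was tested, Isl1, called higher at 6 than at 0 days by a log2 difference of 1.46. The part of these cell types in the Hoxc levels was not tested.

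Outside the cluster, genes with the profile nearest to each member were found among 4111 protein-coding genes that reached 5 FPKM in some library, by the same distance over 4 libraries. Gas1, which encodes a cell-surface protein, was nearest to Hoxc4 (0.42), followed by Hoxb5 (0.59). Dach1 (0.61) and Mrc2 (0.76) were among the 3 nearest to Hoxc5. For Hoxc6 they were Mfap4 (0.37), Nsg2 (0.57) and Kif21a (0.62), all highest at 6 days. Sox9 (0.21), Sall2 (0.27) and Moxd1 (0.29) were nearest to Hoxc8. Hoxc9 had Nck2 (0.06), Dlg4 (0.12) and Tmed4 (0.12), and Hoxc13 had Bambi (0.08), Kalrn (0.10) and Lrrfip1 (0.12). A small distance comes more easily to members whose levels differ little, such as Hoxc9 and Hoxc13, and 4 values per gene leave many profiles alike.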

How the data were processed

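RNA was measured in 4 libraries, 1 per group. The deposited values are FPKM, per the file headers; per the submitters' processing notes the authors used Trimmomatic, TopHat, Cufflinks and mm10, and no versions are named. The sources used here do not give annotation, strand use or filters. Cufflinks splits shared reads by a model. In GENCODE M21 a noncoding Hoxc5 transcript shares 166 bases with a Hoxc10 exon, so reads there are uncertain. Reads of a minus-strand gene could count for its overlapping partner if strand was not used. FPKM scales to the library total, so a few abundant transcripts lower all other values.

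The table has 10201 rows and 9997 symbols; 177 symbols with several rows were summed. It covers chromosomes 1 and 10 to 18 almost alone, so the Hoxa and Hoxd clusters were not analysed here. Positions and lengths came from GENCODE M21. Differences used log2(FPKM + 1), with a minimum of 1 FPKM in at least 1 library and a 2-fold threshold. Depth was estimated from FPKM times length between 0.02 and 0.05 in genes with 1 transcript of at least 800 nt; estimates per member used its longest coding transcript. Members, lists and named-gene rule (all members, flanking genes, list genes with large differences, the 3 nearest profiles among protein-coding genes) were chosen with earlier results of these data known. Some genes that this rule names are not reported here. Alternatives were pseudocounts of 0.1 and 0.5, no filter, a 5 FPKM filter, median-ratio and upper-quartile scaling, a 4-fold threshold and the highest row of a repeated symbol. The code was checked on simulated data, which says nothing of biological spread. Tools were matplotlib 3.10.9, scipy 1.17.1, pandas 2.3.3, numpy 2.4.6 and Python 3.11.15. The comparison of 10 with 0 days and the lincRNA D930007P13Rik were chosen after the values were seen.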

Additional observations from a re-analysis of the deposited data

How the results depend on the processing

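No paired analysis was possible because each group has 1 library. None of 195 recomputed member differences turned a called direction round. Of these, 178 moved by less than counting error or not at all, and 17 by more. The differences without the filter, with the 5 FPKM filter and with the highest row could not move. Those settings left each member's own values as they were, so only the pseudocounts and scalings tested the differences. Counting error is wide for low members. Hoxc8 at 10 days against the control went from 1.46 to 4.05 with a pseudocount of 0.1 FPKM and counts among the 178. Its control level rests on an estimated 0.7 fragments. The same members were called, and were highest in the same libraries, under both scalings and with the highest row of repeated symbols, except that upper-quartile scaling added Hoxc8 to those lower at 10 against 0 days, 3 in place of 2. A pseudocount of 0.1 FPKM gave 2 members higher at 6 against 0 days, in place of 1, and 1 higher at 10 against 0 days, in place of 0, as did 0.5 FPKM; both also gave 3 lower there in place of 2. Without the filter 3 members, not 1, were highest at 6 days. The 5 FPKM filter left 3 members to test: 3 were higher at 0 days and 3 at 10 days against the control, and 0 were highest at 10 days. A 4-fold threshold gave 4 higher at 0 days against the control, in place of 5, without Hoxc9. It also gave 0 higher at 6 against 0 days, 0 lower at 10 against 6 days and 2 higher at 10 days against the control. Of 120 recomputed list counts 11 moved, which means by more than 1.5 times or to or from 0. The causes of these moves were not tested. Among all tested genes, a pseudocount of 0.1 FPKM called 1111 higher at 0 days against the control, in place of 720. Upper-quartile scaling moved the median gene by -0.11 at 10 against 6 days, where 158 genes were then higher and 76 lower in place of 218 and 50, and by -0.12 at 10 against 0 days, where 713 and 611 replaced 848 and 447. Depth limits Hoxc10, Hoxc11 and Hoxc12 in every library, Hoxc10 at 10 days the least, on an estimated 30.8 fragments. In the control depth limits all members, with Hoxc4 and Hoxc13 on an estimated 16.5 and 21.8 fragments and the others on fewer.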
